A study of Mus musculus with 10 samples.

Results

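The genes described here encode the Timm and Tomm proteins, subunits and chaperones of the translocases that carry proteins into mitochondria. They were taken by name, as the protein-coding genes whose mouse symbol begins with Timm or Tomm and a digit, which gave 25 of the 55416 genes in the count table and 25 of its 21877 protein-coding genes. The family as a whole was chosen by its Musashi IP over IgG fold changes in these same libraries, so its values against IgG are given as a description; no fold change decided whether a single gene belongs to it. RNA was recovered from mouse pituitary lysates by immunoprecipitation and sequenced, to find which pituitary RNAs associate with the RNA-binding proteins Musashi1 and Musashi2. Each of 5 lysates came from 6 pituitaries of sighted FVB mice (FVB.129P2‐Pde6b+Tyrc‐ch/Ant, adult control mice, 8 to 10 weeks old), and was split equally: one part went to a mix of antibodies against Musashi1 and Musashi2 (Musashi IP), the other to rabbit IgG as control. Lysates 2, 5 and 6 were female and lysates 3 and 7 were male, which gave 5 Musashi IP and 5 IgG libraries; another male pair is not analysed here. Because both antibodies were pooled, Musashi1 and Musashi2 cannot be told apart, and because pituitaries were pooled the libraries carry no value for single animals. Musashi IP libraries held 8.74 to 13.02 M counts and IgG libraries 6.67 to 9.35 M. Among pituitary hormone genes, Lhb was at 0 counts in every library. The reason was not tested, and the counting program and annotation are not stated. The other 6 summed to between 14290 and 39680 CPM (counts scaled to library size) in Musashi IP libraries. In IgG libraries these 6 summed to between 12960 and 51220 CPM. Of the 6 tested hormone genes, 1 was higher in Musashi IP at an adjusted p under 0.05, beside 25.7% of protein-coding genes, and 0 were lower. Of the marker genes of other cells, 3 of 4 tested erythroid genes and 2 of 5 immune genes were lower in Musashi IP, beside 4.01% of protein-coding genes. Summed levels were 271 to 688 CPM (erythroid) and 21.7 to 43.3 CPM (immune) in Musashi IP. In IgG they were 461 to 1248 CPM and 37 to 55.7 CPM. No endothelial, mural or posterior lobe marker was called, no marker but Lhb was at 0 throughout, and their part in the results was not tested.

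Nearly all mitochondrial proteins are encoded in the nucleus, made in the cytosol and imported. The TOM complex of the outer membrane (receptors Tomm20, Tomm22 and Tomm70, pore Tomm40, small subunits Tomm5, Tomm6 and Tomm7) receives them, and proteins with a presequence then pass through the TIM23 complex of the inner membrane. Small TIM chaperones escort hydrophobic carrier proteins across the intermembrane space to the TIM22 complex, which inserts them into the inner membrane. Musashi proteins bind short motifs, mainly in the 3′ untranslated regions (UTRs) of mRNAs, and regulate translation.

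The sites shown are all matches to the Musashi motif in the 3′ UTRs of the pair of members with the largest fold change over IgG, Timm29 and Tomm20, and of Tomm22, the member with the most motifs per kb of 3′ UTR. The motif, a G or A followed by 1 to 3 U and then AGU, was searched on the sense strand as GTAGT and ATAGT with 1 U, GTTAGT and ATTAGT with 2, and GTTTAGT and ATTTAGT with 3, with overlapping matches counted. Letters are the DNA letters of GENCODE release M21 transcripts (GRCm38), with 10 bases on each side, and capitals mark the motif. A match is a description of the sequence and not a measured binding site.
Timm29 site 1: ccgcccatgcATTAGTcctgttcatg
Timm29 site 2: cccccttttgGTAGTgtgtatcagt
Timm29 site 3: atatctttatGTAGTccccaaggac
Timm29 site 4: tgaaagtatgGTAGTtgtttttgat
Timm29 site 5: cctgggtaagGTAGTtcttgaattc
Timm29 site 6: aaatgttttaATTAGTgtgtattaaa
Timm29 site 7: tgtgtatgaaATAGTcttattcacc
Tomm20 site 1: gcttctgtctATTAGTggcttcctgt
Tomm20 site 2: ctgggtcagtGTAGTgggaagaatc
Tomm20 site 3: ggaaatggagGTTTAGTtagcttcttt
Tomm20 site 4: aacagccccaGTAGTgcacactgag
Tomm20 site 5: cccaagtcaaATAGTtttgtcaagt
Tomm20 site 6: gaattagaacATAGTcttagtagaa
Tomm20 site 7: tcattcctcaGTAGTgttagtatca
Tomm20 site 8: cctcagtagtGTTAGTatcaggatta
Tomm22 site 1: ctatttgaacATAGTgggaactttc
Tomm22 site 2: tgtgtttgtgGTAGTatttcacacc
Tomm22 site 3: accaattcctGTTTAGTgaagtttcca
Tomm22 site 4: attattgaacATAGTagtgattatt
Tomm22 site 5: attgaacataGTAGTgattattgcc
Tomm22 site 6: tgtttgccttATAGTcttgagaaag
In Timm29 the 7 sites start between base 473 and base 2114 of a 3′ UTR of 2132 bases, and 4 of them are GTAGT. In Tomm20 the 8 sites start between base 535 and base 3935 of 4348 bases, with sites 7 and 8 directly adjacent. In Tomm22 the 6 sites start between base 119 and base 1066 of 1109 bases, and sites 4 and 5 share 2 bases.

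Of the 25 members, 22 had enough counts to be tested, and 10 of these were higher in Musashi IP than in IgG at an adjusted p under 0.05 (called enriched), with none lower. Enriched members were Timm29, Tomm20, Timm8a1, Timm17b, Tomm22, Timm22, Tomm40l, Tomm70a, Tomm34 and Tomm40. The share enriched was 45.5%, beside 25.7% of the 14200 protein-coding genes and 18.5% of all 20550 genes tested, and the share lower was 0%, beside 4.01% of protein-coding genes and 8.40% of all genes. At an unadjusted p under 0.05 there were 14 members (63.6%), beside 42.1% of all genes tested. Tests were edgeR quasi-likelihood tests on counts with the lysate as a block and Benjamini-Hochberg adjustment over all genes. Their p-values rest on how the Musashi IP over IgG ratio varied between these lysates, with a variance estimate that borrows from other genes. The members' median log2 fold change was 0.46 (1.38-fold), beside 0.09 for protein-coding genes and -0.07 for all genes. It ranged from -0.22 for Timm21 to 2.69 for Timm29, with 17 members above 0 and 5 below, and 3 members at least 2-fold higher.

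**Figure D1:**
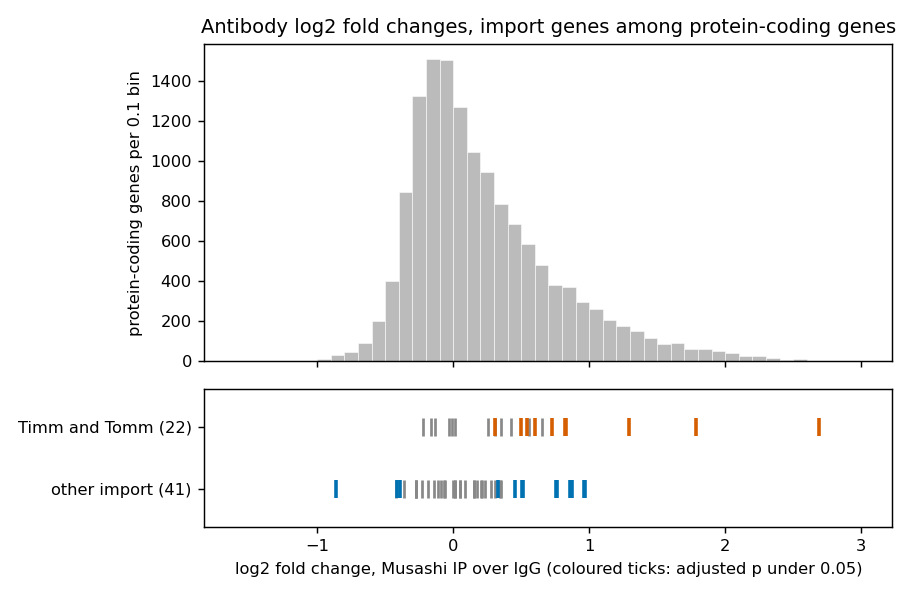
Upper panel: number of protein-coding genes in bins of 0.1 of log2 fold change, Musashi IP over IgG (x axis, log2; y axis, genes per bin). Lower panel: 1 tick for each of the 22 Timm and Tomm genes and of the 41 other import genes on the same x axis, coloured where adjusted p was under 0.05; Timm29 at 2.69 and Tomm20 at 1.79 stand to the right of the other members.

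Summed over the 25 members, levels were 945 ± 279 CPM in Musashi IP libraries and 549.7 ± 72.8 CPM in IgG libraries (SD, n = 5 each). The ranges were 678 to 1416 CPM in Musashi IP and 494 to 676 CPM in IgG, so the highest IgG library lay just under the lowest Musashi IP library. Much of the sum lay in 2 genes. Timm29 made up 15.6 ± 3.34% of the members' CPM in Musashi IP and 4.01 ± 0.36% in IgG, and Tomm20 made up 20.9 ± 4.39% in Musashi IP and 10.0 ± 1.36% in IgG. With Timm29 and Tomm20 left out, the sums were 584 ± 92.2 CPM in Musashi IP and 472 ± 54.3 CPM in IgG, with overlapping ranges of 479.6 to 726 CPM in Musashi IP and 433 to 564.5 CPM in IgG. The ratio of these means was 1.24, near the 1.22 of the summed protein-coding genes tested, while that of all 25 members was 1.72. With the same pair left out, 8 of 20 tested members (40.0%) were enriched, beside 25.7% of protein-coding genes. Their median log2 fold change over all 20 was 0.39, beside 0.09. On a per-length scale, CPM per kb of annotated exon, the order in Musashi IP was led by Timm29 at 48.7 ± 25.9, which had rank 13 of 25 in IgG, and by Tomm20 at 42.2 ± 22.3, which had rank 6 in IgG. In IgG the highest member was Timm8b at 20.9 ± 5.89 CPM per kb, followed by Timm44 at 15.2 ± 2.13, Tomm7 at 14.8 ± 6.23 and Tomm34 at 14.0 ± 0.98. Neighbours in that order differed by less than 1 SD of the higher gene. Tomm6, Timm8a2 and Tomm20l were the lowest members with Tomm40l and Timm8a1, and Tomm6, Timm8a2 and Tomm20l were not tested. Their counts per library were 1 to 3 (Tomm6), 0 to 3 (Timm8a2) and 7 to 13 (Tomm20l) in Musashi IP and 0 to 7, 1 to 4 and 4 to 10 in IgG.

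**Figure D2:**
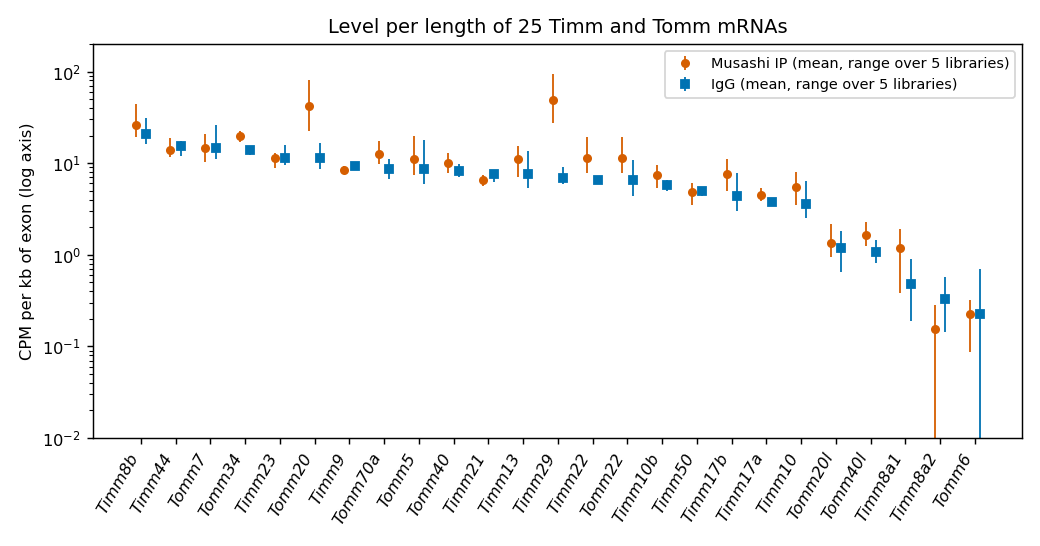
Level of each of the 25 members in CPM per kb of exon (y axis, log scale), ordered by IgG level (x axis). Circles are means of 5 Musashi IP libraries and squares of 5 IgG libraries, bars span lowest to highest library, and the bars of Timm8a2 (Musashi IP) and Tomm6 (IgG) run to the axis end because 1 or more libraries had 0 counts; Timm29 and Tomm20 stand above the rest in Musashi IP only.

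Among TOM subunits, 5 of the 7 tested were enriched, beside 25.7% of protein-coding genes. The median log2 fold change was 0.54, beside 0.09. The largest change was that of Tomm20 (ENSMUSG00000093904, chromosome 8), the receptor that first binds presequences. Tomm20 had 161, 110.2, 201, 394 and 169.6 CPM in Musashi IP libraries 2, 3, 5, 6 and 7, against 82.4, 42.2, 51.0, 52.0 and 52.2 CPM in IgG libraries 2, 3, 5, 6 and 7. Every Musashi IP library lay above every IgG library, with lysate 6 highest in Musashi IP and lysate 2 highest in IgG. Its log2 fold change was 1.79 ± 0.25 (SE), or 3.45-fold (edgeR, Benjamini-Hochberg adjusted p = 0.00376). Genes with a near-identical copy of Tomm20 sequence, 4 in the annotation, held 2 to 12 counts in all per Musashi IP library and 0 to 3 per IgG library, against 1015 to 4026 and 313 to 737 for Tomm20 itself.

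The other TOM receptors were enriched by smaller amounts. Tomm22, the central receptor that joins the pores, had 18.4, 13.03, 18.2, 31.5 and 14.1 CPM in Musashi IP libraries 2, 3, 5, 6 and 7, against 17.9, 7.28, 11.3, 8.58 and 8.52 CPM in IgG. All 5 lysates were higher in Musashi IP, but the groups overlapped because IgG library 2 exceeded Musashi IP libraries 3 and 7; the log2 fold change was 0.82 ± 0.23 (edgeR, Benjamini-Hochberg adjusted p = 0.0314). Tomm70a, the receptor for carrier precursors delivered by chaperones, had 109, 94.9, 125, 169 and 122 CPM in Musashi IP libraries 2, 3, 5, 6 and 7, against 108, 65.5, 89.0, 70.8 and 90.9 CPM in IgG. Its IgG library 2 again lay above a Musashi IP library (3), and the ratio in lysate 2 was close to 1, with a log2 fold change over all lysates of 0.54 ± 0.16 (edgeR, Benjamini-Hochberg adjusted p = 0.0362). Tomm40, the pore itself, averaged 45.8 ± 9.03 CPM in Musashi IP and 36.8 ± 4.92 CPM in IgG, a log2 fold change of 0.30 ± 0.10 (edgeR, Benjamini-Hochberg adjusted p = 0.0486). Tomm40 was called in 1 of the 12 alternative settings and lysate omissions, limma-voom, with log2 fold changes from 0.09 (offsets for transcript length and GC content) to 0.33 and adjusted p up to 0.507.

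Tomm40l, a paralogue of the pore, was low, at 9.44, 6.73, 6.37, 11.7 and 7.76 CPM in Musashi IP libraries 2, 3, 5, 6 and 7, against 7.38, 4.18, 6.22, 5.10 and 4.72 CPM in IgG. Every lysate was higher in Musashi IP and IgG library 2 overlapped the Musashi IP range; the log2 fold change was 0.60 ± 0.19 (edgeR, Benjamini-Hochberg adjusted p = 0.0428), and it was called in 3 of the 12 alternatives, with values from 0.29 (length and GC offsets) to 0.74. Tomm40l shares 64.3% of its exon bases with Nr1i3 on the opposite strand, which had 2 to 7 counts per library in both groups. Neither tested small subunit was called. Tomm7, which modulates the assembly of the complex, had 22.2, 13.9, 11.4, 23.7 and 11.98 CPM in Musashi IP libraries 2, 3, 5, 6 and 7, against 29.1, 13.6, 12.4, 14.7 and 13.2 CPM in IgG. It was lower in Musashi IP in 3 lysates and higher in 2, with a log2 fold change of 0.01 ± 0.16. Tomm5 had a log2 fold change of 0.43 ± 0.30.

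Both TIM22 members were enriched, beside 25.7% of protein-coding genes. In both, every Musashi IP library lay above every IgG library. Timm29 (ENSMUSG00000048429, chromosome 9) encodes a metazoan subunit that links TIM22 to the TOM complex. It had 109, 88.0, 146.5, 296 and 132 CPM in Musashi IP libraries 2, 3, 5, 6 and 7, against 28.7, 18.6, 20.2, 23.4 and 19.5 CPM in IgG. Lysate 6 was highest in Musashi IP and lysate 2 in IgG, and the lowest Musashi IP library (3) still exceeded the highest IgG library. The log2 fold change was 2.69 ± 0.23, or 6.44-fold (edgeR, Benjamini-Hochberg adjusted p = 0.00336), and single lysates gave log2 ratios of 1.92 in lysate 2, 2.23 in lysate 3, 2.84 in lysate 5, 3.65 in lysate 6 and 2.75 in lysate 7. Timm29 shares 107 exon bases (3.38%) with Yipf2 on the opposite strand, whose log2 fold change was 0.29 ± 0.09 (edgeR, Benjamini-Hochberg adjusted p = 0.0524). Timm22, the channel-forming subunit, had 25.6, 24.9, 35.8, 61.4 and 35.1 CPM in Musashi IP libraries 2, 3, 5, 6 and 7, against 22.1, 22.4, 19.3, 21 and 20.3 CPM in IgG. Its IgG libraries were close together and the difference was small in lysates 2 and 3, with a log2 fold change of 0.72 ± 0.20 (edgeR, Benjamini-Hochberg adjusted p = 0.0285). Non-overlapping groups of this kind were found for 4 of the 22 members (Timm29, Tomm20, Timm22 and Tomm34), beside 13.6% of protein-coding genes; 12 members were higher in Musashi IP in every lysate, beside 31.1%, and Timm9 and Timm21 were lower in every lysate, beside 12.7%. No member had every Musashi IP library below every IgG library, beside 1.35% of protein-coding genes.

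**Figure D3:**
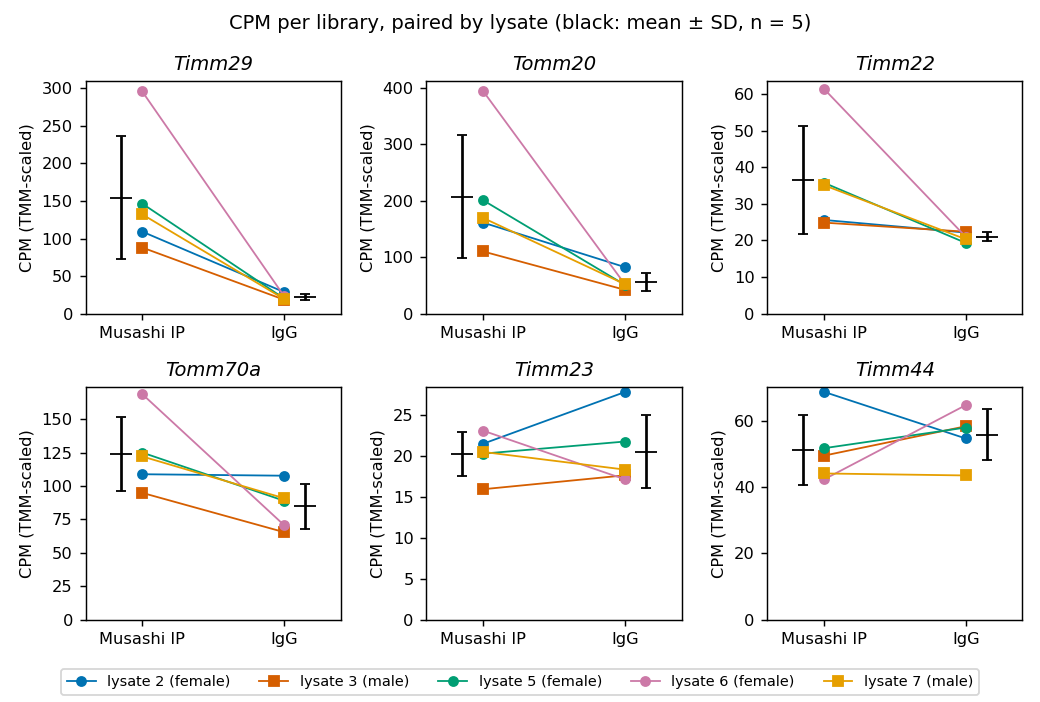
CPM (y axis, TMM-scaled, from 0) of 6 members in Musashi IP and IgG libraries (x axis), 1 line per lysate; black marks are the mean ± SD of 5 libraries. Timm29, Tomm20 and Timm22 do not overlap between groups, Tomm70a overlaps through IgG library 2, and the lines of Timm23 and Timm44 cross.

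TIM23 members formed the group closest to IgG, with a median log2 fold change of -0.02. Of the 6 members 1 was enriched, beside 25.7% of protein-coding genes. The exception was Timm17b (chromosome X), 1 of the 2 paralogues that line the TIM23 channel. Timm17b had 23.1, 12.8, 18.4, 28.6 and 15.7 CPM in Musashi IP libraries 2, 3, 5, 6 and 7, against 19.8, 9.84, 9.60, 9.51 and 7.60 CPM in IgG. Each lysate was higher in Musashi IP, IgG library 2 overlapped the Musashi IP range, and the log2 fold change was 0.83 ± 0.20 (edgeR, Benjamini-Hochberg adjusted p = 0.0182). Its paralogue Timm17a was not called, at 0.26 ± 0.11, and fell to 0.08 with library totals as the scale. Timm23, the channel partner, had a log2 fold change of -0.01 ± 0.14. Genes with near-identical copies of Timm23, 6 in the annotation, held 27 to 44 counts per Musashi IP library and 27 to 51 per IgG library. The longest match was 1121 bases, and the longest Timm23 transcript has 1173 bases. How multiply mapped reads were handled is not stated, so the error in the 131 to 249 counts of Timm23 cannot be bounded.

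The remaining TIM23 members were at or below the IgG level. Timm50, the receptor on the intermembrane side, had 15.5, 16.3, 9.40, 11.1 and 13.5 CPM in Musashi IP libraries 2, 3, 5, 6 and 7, against 13.4, 13.3, 14.3, 11.8 and 13.5 CPM in IgG. Timm44, which tethers the import motor to the channel, had 68.8, 49.5, 51.7, 42.3 and 44.1 CPM in Musashi IP libraries 2, 3, 5, 6 and 7, against 54.7, 58.4, 58.0, 64.7 and 43.5 CPM in IgG. Their log2 fold changes were -0.03 ± 0.15 (Timm50) and -0.13 ± 0.14 (Timm44), and in both genes the groups overlapped and lysates disagreed in sign. Timm21, whose yeast counterpart connects TIM23 to TOM and the respiratory chain, had 27.9, 21.1, 26.5, 23.4 and 24.2 CPM in Musashi IP libraries 2, 3, 5, 6 and 7, against 28.9, 23.1, 31.6, 28.3 and 31.6 CPM in IgG. It was lower in Musashi IP in every lysate but was not called, at -0.22 ± 0.10 (edgeR, Benjamini-Hochberg adjusted p = 0.132); with library totals as the scale it was called lower, at -0.40 (adjusted p = 0.0362), as were 14.5% of protein-coding genes on that scale.

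Of the small TIM chaperones, 1 of 6 tested was enriched, beside 25.7% of protein-coding genes. The median log2 fold change was 0.45, beside 0.09. The enriched gene was Timm8a1 (chromosome X), whose human counterpart is mutated in a deafness and dystonia syndrome. It had the fewest counts of the tested members, with 1.55, 0.54, 1.62, 2.74 and 1.90 CPM in Musashi IP libraries 2, 3, 5, 6 and 7, against 0.78, 0.27, 0.52, 1.28 and 0.52 CPM in IgG. These are 5 to 28 counts per Musashi IP library and 2 to 11 per IgG library. All 5 lysates were higher in Musashi IP and the groups overlapped, with a log2 fold change of 1.29 ± 0.27 (edgeR, Benjamini-Hochberg adjusted p = 0.0109). Timm8a1 was called in 7 of the 10 alternatives with an adjusted p for it. A near-identical copy of up to 612 bases lies in 1 other gene, which had 0 counts in Musashi IP and 0 to 1 per IgG library.

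Timm8b had the highest level per length in IgG among all members and was not called, at 12.8, 9.99, 10.1, 23.0 and 12.6 CPM in Musashi IP libraries 2, 3, 5, 6 and 7, against 16.0, 10.2, 8.43, 8.70 and 10.8 CPM in IgG. Musashi IP library 6 stood apart from the other 4, and the log2 fold change was 0.31 ± 0.23. Timm9 and Timm10 form a hexameric chaperone together, and their values against IgG were on opposite sides of 0. Timm9 had 35.4, 37.1, 39.8, 33.8 and 32.3 CPM in Musashi IP libraries 2, 3, 5, 6 and 7, against 41.7, 39.6, 40.7, 38.4 and 38.8 CPM in IgG. It was slightly lower in every lysate, at -0.16 ± 0.09 on the log2 scale, and was called lower with library totals as the scale (-0.34, adjusted p = 0.0388), where 14.5% of protein-coding genes were. Timm10 averaged 4.48 ± 1.51 CPM in Musashi IP and 2.89 ± 1.34 CPM in IgG, a log2 fold change of 0.65 ± 0.22 that just missed the threshold (edgeR, Benjamini-Hochberg adjusted p = 0.0591). Timm13, the partner of Timm8 proteins, had 0.56 ± 0.19 (adjusted p = 0.0571) and Timm10b had 0.35 ± 0.13 (adjusted p = 0.0781) on the log2 scale. Timm10b shares 7.73% of its exon bases with Arfip2 on the opposite strand, which was itself enriched (0.63 ± 0.15), and Timm8b shares 15.6% with Nkapd1 (0.29 ± 0.16).

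Tomm34 is named with the TOM proteins but is a cytosolic co-chaperone of Hsp70 and Hsp90. It had 58.0, 51.7, 65.1, 68.7 and 57.6 CPM in Musashi IP libraries 2, 3, 5, 6 and 7, against 43.0, 44.3, 44.4, 37.4 and 43.8 CPM in IgG. The groups did not overlap and the spread was small in both, with a log2 fold change of 0.50 ± 0.11 (edgeR, Benjamini-Hochberg adjusted p = 0.0156). Its log2 fold change was 0.31 with length and GC offsets, still called.

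**Figure D4:**
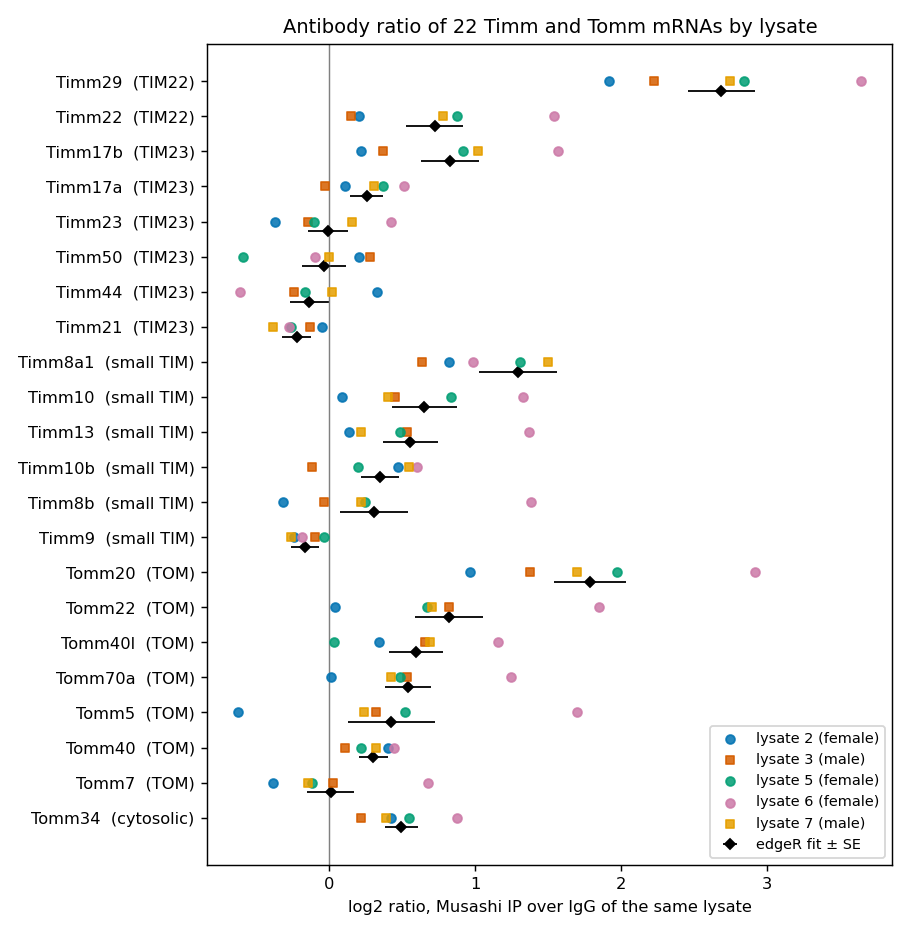
Log2 ratio of Musashi IP over IgG (x axis, prior count of 2) for each of 22 members (rows, with role) in each of 5 lysates (circles female, squares male), with the edgeR log2 fold change ± SE as black diamonds. Lysate 6 lies farthest right for 17 of the 22 members.

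The size of the family's ratio varied by lysate. The median log2 ratio over the 22 members was 0.17 in lysate 2, 0.25 in lysate 3, 0.43 in lysate 5, 1.07 in lysate 6 and 0.36 in lysate 7, against medians of 0.05, 0.08, 0.09, 0.28 and 0.11 for protein-coding genes in the same lysates. The TMM scaling factors were 0.784 for Musashi IP library 6 and 1.083 for IgG library 6. Why ratios were larger in lysate 6 was not tested. Musashi IP library 6 was the highest Musashi IP library for 17 of 22 members (77.3%), as it was for 42.9% of protein-coding genes, and IgG library 2 was the highest IgG library for 14 of 22 (63.6%), beside 37.8%. Timm29 and Tomm20 did not rest on lysate 6: without it Timm29 had a log2 fold change of 2.44 (edgeR, Benjamini-Hochberg adjusted p = 1.46e-05) and Tomm20 1.505 (adjusted p = 6.06e-05). Both were called under all 12 alternative settings and lysate omissions, at 2.44 to 2.94 for Timm29 and 1.505 to 2.05 for Tomm20. The other 8 enriched members lost their call when lysate 5 or lysate 7 was left out, which left 2 enriched members each time, while 11.5% of protein-coding genes were enriched without lysate 5 and 15.6% without lysate 7. Without lysates 2, 3 and 6 the counts were 12, 6 and 7 members, beside 31.6%, 20.7% and 24.8% of protein-coding genes. Without the lysate as a block 4 members were enriched, Timm29, Tomm20, Timm22 and Tomm34, beside 16.5% of protein-coding genes.

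Members are short mRNAs, with a median coding length of 514.5 bases beside 1434 for the protein-coding genes tested and a median 3′ UTR of 989 bases beside 1398. A Musashi motif was found in the 3′ UTR of 16 of the 22 tested members (72.7%), beside 73.0% of 14126 protein-coding genes with an annotated 3′ UTR, and the median density was 1.54 motifs per kb beside 1.39. The 7 motifs of Timm29 were matched or exceeded by 15.3% of the 2446 3′ UTRs within 20% of its length, of which 92.6% held any. For Tomm20, 52.3% of 1313 such 3′ UTRs held at least 8 motifs. For Tomm22, 3.35% of 1942 such 3′ UTRs held at least 6, and 75.8% held any. Tomm70a had 15 motifs in 3969 bases, a count reached by 6.57% of 1506 3′ UTRs of like length. For the other enriched members with a motif, such shares were 93.5% (Tomm40l), 65.5% (Tomm34), 64.1% (Timm22), 53.4% (Timm17b) and 32.8% (Timm8a1). For members with a motif that were not called, they ran from 23.3% (Timm10) to 81.6% (Timm9). Timm17a, which was not called, had the longest 3′ UTR of the family, 6705 bases, and the most motifs, 17. Across the 22 members the Spearman correlation of log2 fold change with the number of motifs was 0.49, beside 0.28 over protein-coding genes, and with 3′ UTR length it was 0.25 beside 0.35; genes are not independent replicates and the motif count moves with 3′ UTR length. The enriched Tomm40 had no motif in its 3′ UTR, as was the case for Tomm5, Timm13, Timm8b, Timm50 and Timm21, which were not called.

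Other genes of the import pathway were taken as a list of 41 by role, all of them tested. Of these, 10 were enriched (24.4%) and 3 were lower, with a median log2 fold change of 0.08, near the values of 25.7% and 0.09 for protein-coding genes. In outer membrane sorting and assembly, Mtx3 (0.97 ± 0.16) and Mtch1 (0.87 ± 0.14) were enriched among 6 genes, the metaxin averaging 144 ± 44.7 CPM in Musashi IP and 71.1 ± 5.95 CPM in IgG. Mtch1 is an outer membrane insertase-related protein and averaged 194 ± 51.0 CPM in Musashi IP and 104 ± 18.3 CPM in IgG. In the presequence motor, 1 of 7 was enriched, Dnajc15 (0.86 ± 0.16), a J-domain partner of the motor's Hsp70. Cytosolic delivery gave 1 of 8, Ubqln1 (0.96 ± 0.19), a ubiquilin that binds membrane protein precursors. The matrix co-chaperonin Hspe1 (0.76 ± 0.24), the disulfide relay oxidoreductase Chchd4 (0.51 ± 0.15), the insertase Oxa1l (0.46 ± 0.12) and the MICOS subunit Minos1 (0.51 ± 0.13) were also enriched, each as 1 of 2 genes of its role except Minos1, which was 1 of 7. All of these values are log2 fold changes ± SE from the same edgeR fit, at Benjamini-Hochberg adjusted p between 0.00492 and 0.0430.

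The processing peptidases held genes called in both directions. Xpnpep3, which trims the N-terminal residue after processing, was enriched (0.76 ± 0.14), while Immp2l (-0.86 ± 0.20) and Immp1l (-0.42 ± 0.13), the inner membrane peptidase subunits, were lower in Musashi IP. Immp2l kept its call in 11 of 12 alternatives, while Immp1l kept it in 5 and was at -0.06 with length and GC offsets. The subunits of the matrix processing peptidase, named after their values were seen, also lay on opposite sides of 0. Pmpca averaged 117 ± 23.1 CPM in Musashi IP and 92.2 ± 6.42 CPM in IgG (log2 fold change 0.33 ± 0.10), and Pmpcb averaged 53.8 ± 4.11 CPM in Musashi IP and 70.6 ± 7.04 CPM in IgG (-0.39 ± 0.10). The call for Pmpca had an adjusted p of 0.0483 and that for Pmpcb one of 0.0187 (edgeR, Benjamini-Hochberg). The direct partner of the TIM22 complex, the lipid kinase Agk, was not called, at -0.36 ± 0.12. Without lysate 5 no gene of the list of 41 was called lower and 5 were enriched, beside 0.141% and 11.5% of protein-coding genes. Without lysates 3 and 7 the enriched were 5 and 6, beside 20.7% and 15.6% of protein-coding genes. Without lysate 6 there were 5 lower, beside 4.66%. Mtx3, Mtch1, Dnajc15, Ubqln1 and Xpnpep3 kept their calls under all 12 alternatives, and Chchd4, Oxa1l, Minos1, Hspe1, Immp1l and Immp2l lost theirs under 1 or more.

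Sex was given by the labels and was not used in picking the genes. In bulk tissue fewer cells of a type and less RNA per cell cannot be told apart. In Musashi IP libraries, 3 female against 2 male, no member of 22 was called, while 2.84% of all genes were. Before adjustment 4 members (18.2%) were under 0.05, all higher in females, a share near the 17% of protein-coding genes and 16.5% of all genes. Of these Timm17b averaged 23.4 ± 5.12 CPM in female and 14.2 ± 2.04 CPM in male Musashi IP libraries (log2 difference 0.69 ± 0.26, edgeR, Benjamini-Hochberg adjusted p = 0.230). Tomm5 averaged 11.9 ± 4.50 CPM in female and 6.50 ± 0.17 CPM in male Musashi IP libraries (0.85 ± 0.33), and Tomm22 22.7 ± 7.66 CPM in female and 13.5 ± 0.72 CPM in male libraries (0.72 ± 0.29). The fourth was Tomm20, at 252 ± 125 CPM in females and 140 ± 42.0 CPM in males (0.81 ± 0.36). All but Timm50 of the 22 members (95.5%) were higher in females on this scale, with a median log2 difference of 0.41, beside 57.9% and 0.09 for protein-coding genes. The female libraries include Musashi IP library 6, the highest for 17 members.

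In IgG libraries no member of 21 was called, while 4.50% of all genes were, and none had an unadjusted p under 0.05, beside 16.7% of all genes. The smallest p-values were those of Tomm22, at 12.6 ± 4.79 CPM in female and 7.90 ± 0.88 CPM in male IgG libraries (log2 difference 0.67 ± 0.33; edgeR, Benjamini-Hochberg adjusted p = 0.357), Tomm20 (0.38 ± 0.23) and Tomm5 (0.74 ± 0.46). There 17 of 21 members (81.0%) were higher in females, with a median of 0.29, beside 53.6% and 0.03 for protein-coding genes, and the female libraries include IgG library 2, the highest for 14 members. Libraries of a lysate share their tissue, so the Musashi IP and IgG differences are not independent. The antibody effect itself was compared between sexes within the paired fit. No member's effect was called different between females and males, nor was that of any of the 20550 genes (0%; 187 at an unadjusted p under 0.05, none of them a member). The members' female minus male differences ran from -0.37 (Timm8a1) to 0.42 (Timm22) on the log2 scale, with SEs of 0.22 to 0.65. For Timm29 the difference was 0.31 ± 0.47 and for Tomm20 0.41 ± 0.50. The smallest p-values were those of Tomm34 (0.31 ± 0.23), Timm22 (0.42 ± 0.41) and Timm50 (-0.30 ± 0.32).

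**Figure D5:**
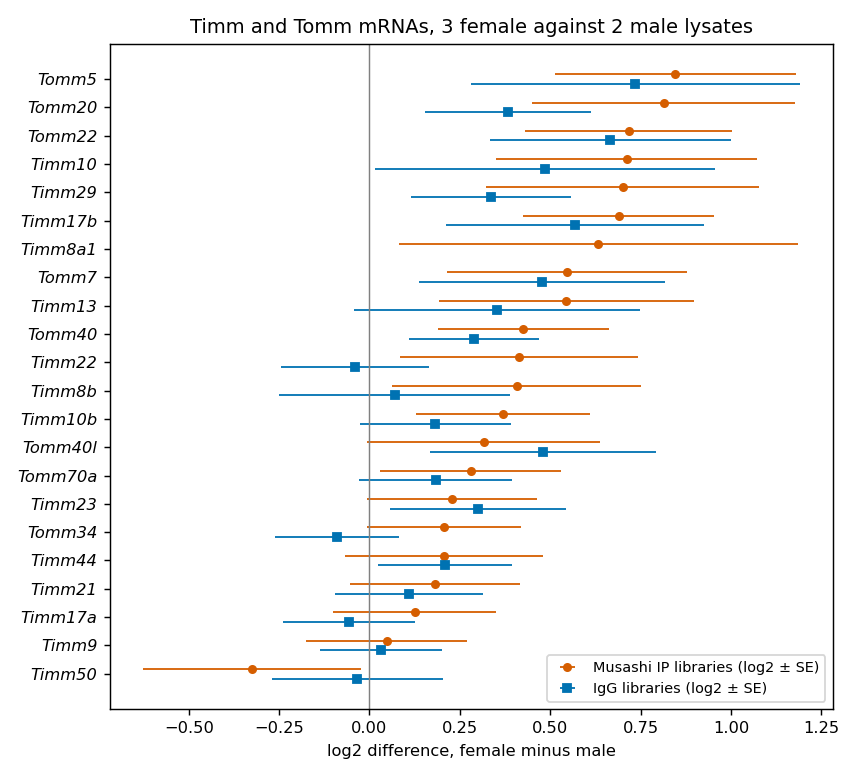
Log2 difference, female minus male (x axis), ± SE for each of 22 members (rows), from 3 female and 2 male lysates, in Musashi IP libraries (circles) and IgG libraries (squares; 21 members). Most values lie right of 0 and none passed the adjusted threshold.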

How the data were processed

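Musashi IP and IgG RNA from 5 pituitary lysates was sequenced from TruSeq Stranded Total RNA Gold libraries, per the labels' protocols. The authors deposited raw counts per Ensembl gene, with no normalization; FastQC 0.11.8, Trimmomatic 0.39, STAR 2.7.1a and GRCm39 come from the submitters' processing notes. The counting program, annotation, strand setting and handling of multiply mapped reads are not stated there or in the labels, so genes with near copies or overlapping neighbours are uncertain. Symbols, lengths and 3′ UTRs came from GENCODE M21 (GRCm38) by gene ID (52083 of 55416 IDs matched); no coordinates are given because the builds differ, and the longest annotated 3′ UTR of a gene was used.

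Counts were tested in R 4.3.3 with edgeR 4.0.16 (filterByExpr, TMM scaling, glmQLFit and glmQLFTest, Benjamini-Hochberg over all genes tested, threshold 0.05). Musashi IP against IgG used 10 libraries, blocked by lysate, with 4 residual degrees of freedom. The female minus male antibody effect was fitted with the effect nested in sex, and sexes were compared unpaired within each antibody. CPM are counts scaled to library size with TMM factors, given as mean ± SD over libraries. The SE of an edgeR log2 value was derived from the test, as its absolute value divided by the square root of the F statistic. Near copies were matches of at least 95% identity over 200 bases (blastn 2.17.0). The lysate pairs the libraries because each was split; deviations from group means of same-lysate libraries correlated at 0.523, 0.679, 0.602, 0.186 and 0.778 for lysates 2, 3, 5, 6 and 7. In lysate 6 this was below the highest value with a library of another lysate (0.415); in the other 4 it was above. The scripts were tested on simulated data. Alternatives were DESeq2 1.42.0 and its size factors, limma-voom (limma 3.58.1), library totals as scale, no low-count filter, no block, length and GC offsets, and leaving out each lysate.

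Members and lists were chosen with earlier results of these data known. Values in every library are given for the 8 enriched members of largest fold change, the 4 of lowest fold change and the member of highest IgG level per length in each role. Counts are not independent molecules, since no molecular identifiers are described. Nothing in the sources says that lysates of a sex came from separate litters or cages.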

Additional observations from a re-analysis of the deposited data

Results flagged for a closer look

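In 66 groups of 5 values (22 members, both antibodies, and the lysate ratios), 9 had a highest or lowest library set apart by the gap criterion for outliers. Chance sets apart about 1 group in 20 for a single group. These groups share libraries and the ratios are built from the other values, so the 9 are not separate events. Of the 9, 6 were in lysate 2 and 3 in lysate 6. In IgG library 2, Tomm20 stood high at 82.4 CPM, Tomm7 at 29.1 CPM, Timm17b at 19.8 CPM, Timm13 at 18.7 CPM, Tomm5 at 15.5 CPM and Timm10 at 5.26 CPM. In Musashi IP library 6, Timm29 stood high at 296.0 CPM and Timm8b at 23.0 CPM. In IgG library 6, Tomm34 stood low at 37.4 CPM. The sources of these deviations were not tested.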

How the results depend on the processing

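Under the 7 other processing settings, 4 to 11 members were enriched, beside 16.5% to 28.1% of protein-coding genes. The lowest count, 4 of 22 (18.2%), came without the lysate as a block, beside 16.5%. The highest, 11 of 25 (44.0%), came with no low-count filter, beside 28.1%. With library totals as the scale 2 members (Timm9 and Timm21) were called lower, where none was otherwise. That is 9.09% of members, below the 14.5% of protein-coding genes lower on that scale (4.01% with TMM). Library totals moved the all-gene median log2 fold change to -0.24, against -0.07 with TMM, and that of the members to 0.29, against 0.46. A change of scale moves all genes by about the same amount. The family was also chosen by these fold changes, so its place above the all-gene median is a description only. Leaving out each lysate in turn gave 2 to 12 enriched members, beside 11.5% to 31.6% of protein-coding genes. Of the 41 other import genes, 5 were enriched without the block, beside 16.5% of protein-coding genes, and 6 with length and GC offsets, beside 21.1%. When lysates were left out 5 to 12 were enriched, beside 11.5% to 31.6% of protein-coding genes. With library totals 9 were lower (where their median was -0.09), beside 14.5% of protein-coding genes. Between 0 and 5 were lower when lysates were left out, beside 0.141% to 6.05% of protein-coding genes. Members near 0 changed sign. Tomm7, at 0.01, gave -0.0052 with DESeq2 size factors, -0.16 with library totals, -0.0059 with DESeq2, -0.0010 without the block, and -0.17 to 0.17 when lysates were left out (below 0 without lysate 3, 6 or 7). Timm50 gave -0.20 to 0.10 when lysates were left out, above 0 without lysate 5. Timm23 gave 0.0047 with no low-count filter, 0.042 with length and GC offsets and -0.12 to 0.14 when lysates were left out, above 0 without lysate 2 or 5. Among single-gene antibody values, 307 of the alternatives kept direction and side of the threshold, 67 lost the call, 8 gained it and 12 reversed. The cause of these changes was not tested; leaving out a lysate also leaves fewer libraries. In each sex comparison the 3 members of smallest p were followed through alternatives. None of them was called with DESeq2 size factors, library totals or no low-count filter. The other processing settings were not fitted for sex, and leaving out a male lysate leaves a single male. DESeq2 gave no adjusted p for Timm8a1. With 3 female and 2 male lysates, and 5 to 28 counts of Timm8a1 in Musashi IP, depth and number limit precision.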
